A study of Mus musculus with 8 samples.

Results

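The genes described here are 59 nuclear-encoded subunits of respiratory complexes I to IV, chosen by gene name from a list that holds 34 subunits of complex I, 4 of complex II, 7 of complex III and 14 of complex IV, among 49315 genes counted. All 59 were matched to an Ensembl identifier in the count tables, and all 59 passed the filter on low counts. RNA was sequenced from whole mouse hearts at embryonic day 9.5, in 4 wild-type libraries and 4 libraries of homozygous Tbx20EH1Mut embryos, each made from 3 pooled hearts. Tbx20EH1Mut is a germline change of 2 amino acids in the engrailed homology (EH1) domain of the cardiac T-box transcription factor Tbx20, through which it binds TLE corepressors. The allele was made by CRISPR/Cas9 editing of embryos, came from an edited founder male bred to C57BL/6J, and lay in every cell of the embryo rather than under a tissue-specific promoter. The comparison asks how the messages of the nuclear respiratory subunits, by complex and by tissue-specific *Cox* isoform, differed between these genotypes.

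The respiratory chain of the inner mitochondrial membrane passes electrons from NADH (complex I) and succinate (complex II) through ubiquinone to complex III, cytochrome *c* and complex IV, which reduces oxygen to water, and complexes I, III and IV pump protons that drive ATP synthase. Complex II is built of nuclear-encoded subunits alone, whereas the other complexes combine nuclear subunits with mitochondrially encoded ones. Complex IV, cytochrome *c* oxidase, has paralogous subunits used in particular tissues: *Cox6a2*, *Cox7a1* and *Cox8b* are the heart and skeletal muscle forms of *Cox6a1*, *Cox7a2* and *Cox8a*, and *Cox4i2* is the form of *Cox4i1* known from lung and from cells short of oxygen.

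Between 33359322 and 49523086 reads were counted on genes in the wild-type libraries and between 36250675 and 38357025 in the Tbx20EH1Mut libraries. Levels are given as CPM, counts relative to the scaled library size. Genes are described as called, or as having risen or fallen, where the quasi-likelihood test of edgeR left an adjusted p of 0.05 or less (Benjamini-Hochberg, 17163 genes tested). *Tbx20* measured 353, 366, 379.6 and 372 CPM in wild-type and 215, 247, 289 and 317 CPM in Tbx20EH1Mut libraries, each in the order of replicates 1 to 4, as for all genes below (log2 fold change -0.46, edgeR adjusted p = 0.0273), a call lost in 7 of 20 alternatives. Since the mutation substitutes amino acids, this level does not check the genotype labels. Of 12 cardiomyocyte markers, *Pln* rose and *Actn2* fell, and their summed level was 24720 to 34090 CPM in wild-type and 24830 to 37930 CPM in Tbx20EH1Mut libraries. These markers do not include *Myh6*, *Myh7*, *Mybpc3* or *Atp2a2*, which the paper reports as downregulated in Tbx20EH1Mut hearts. The paper also counted fewer cardiomyocytes in sections of these hearts. Of 9 primitive erythroid markers 8 fell (summed level 1778 to 4632 against 327.7 to 1038 CPM), and of 10 foregut epithelium markers 6 rose (190.5 to 296.5 against 656 to 894.2 CPM). The foregut count ranged from 3 (without wild-type replicate 3 or 4 or Tbx20EH1Mut replicate 1, 2 or 4) to 9 (without wild-type replicate 2, with a replicate block, or without the 3 libraries described next). Of the cardiomyocyte markers, 0 were called by edgeR without wild-type replicate 2 or 3 or Tbx20EH1Mut replicate 2, 3 or 4, whereas 3 were called lower by DESeq2 and with each of 3 offsets that remove a library's trend on gene or message length, and 2 without those 3 libraries. Of 10 endothelial and endocardial markers 5 rose (791.5 to 951.9 against 1061 to 1159 CPM), and 2 were called lower without wild-type replicate 1 or those 3 libraries. In such bulk samples fewer cells of a type and less RNA per cell cannot be told apart, and the part of these cell types in the results below was not tested. Among 8 skeletal muscle and somite markers, *Myod1*, *Myf5*, *Myog*, *Pax3* and *Pax7* were under 1 CPM in every library, and of the 3 tested *Tcf15* rose (log2 fold change 2.60), *Actn3* fell (-1.59, a call lost without Tbx20EH1Mut replicate 4) and *Meox1* was not called (1.26). Their summed level was 3.96 to 7.5 CPM in wild-type and 3.66 to 13.4 CPM in Tbx20EH1Mut libraries.

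The libraries of each genotype differed among themselves in short messages, and most subunit messages are short. Wild-type replicate 1 held the highest wild-type value of 54 of the 59 subunits, and wild-type replicate 2 held the lowest of 54. Tbx20EH1Mut replicate 3 held the highest value of its genotype for 54 subunits. The median log2 deviation of the 59 subunits from their mean over the 8 libraries was 0.49, -0.77, -0.01 and -0.14 in wild-type replicates 1 to 4 and -0.22, -0.14, 0.58 and 0.10 in Tbx20EH1Mut replicates 1 to 4. Over 862 protein-coding genes with a main transcript of at most 1000 bases, the same measure was 0.24, -0.67, -0.14 and -0.21 in wild-type replicates and 0.05, 0.05, 0.48 and 0.23 in Tbx20EH1Mut replicates. Short messages in general were thus high in wild-type replicate 1 and Tbx20EH1Mut replicate 3 and low in wild-type replicate 2, as the subunits were. These 3 libraries are called the libraries that stand apart, and results that rest on them are given with and without them. Fits without them keep wild-type replicates 3 and 4 and Tbx20EH1Mut replicates 1, 2 and 4. They were picked on these same subunits, so leaving them out narrows the spread within genotypes for most subunits. Such fits are no independent test of the calls.

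**Figure D1:**
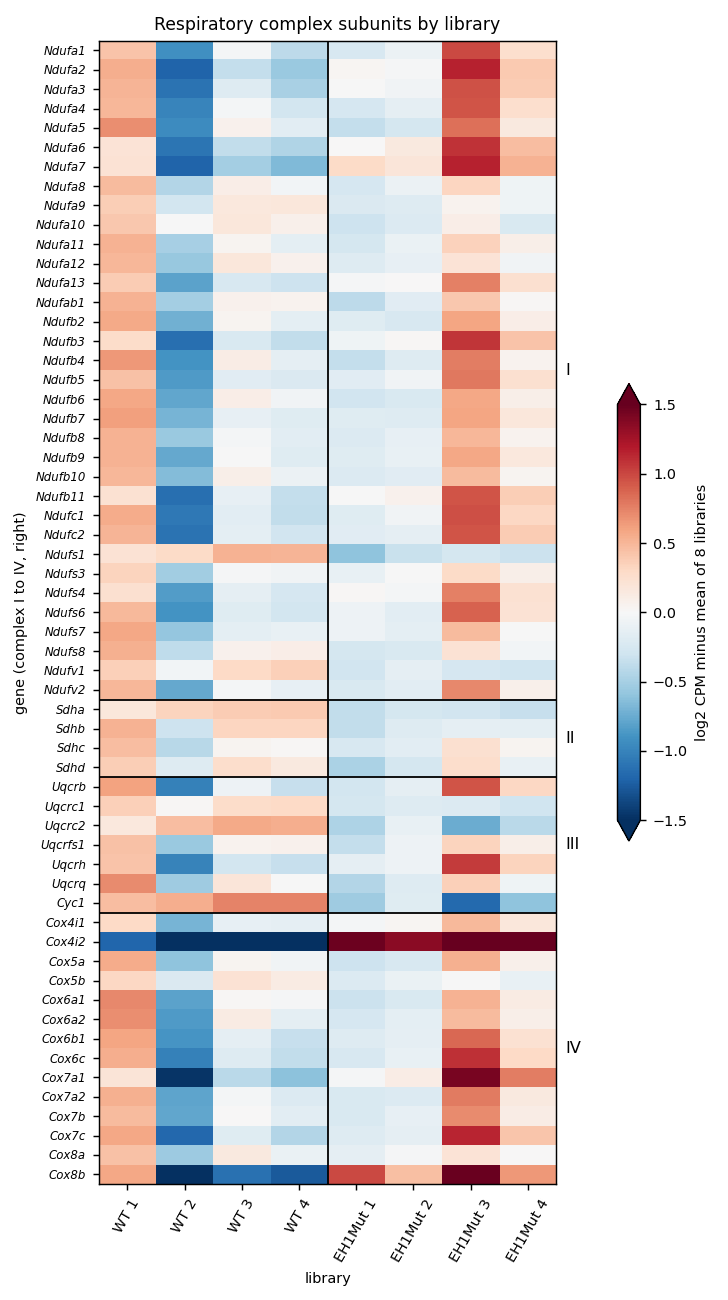
Heat map of the 59 subunits (rows, by complex) in the 8 libraries (columns, 4 wild-type and 4 Tbx20EH1Mut), coloured by log2 CPM minus the gene's mean over all libraries. Columns WT 1 and EH1Mut 3 are red and WT 2 is blue for most rows, whereas *Ndufs1*, *Sdha*, *Uqcrc2* and *Cyc1* are red in all 4 wild-type columns and blue in all 4 Tbx20EH1Mut columns, and *Cox4i2* shows the opposite.

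Of the 59 subunits, 10 (16.9%) were called, against 29.3% of all genes tested. Cox4i2, Cox7a1, Cox8b and Ndufa7 rose, where 14.0% of all genes were called higher, and Ndufs1, Ndufv1, Sdha, Uqcrc1, Uqcrc2 and Cyc1 fell, where 15.3% of all genes were called lower. With a log2 fold change of at least 0.5 in size as well, 8 subunits were called, against 24.6% of all genes. The median log2 fold change was 0.11 over the subunits and 0.00 over all genes, with 39 subunits above and 20 below 0. The sign of the subunit median depended on the setting. It was -0.16 with the offset on main transcript length, alone or with GC content, and -0.05 with that on exon length. It was -0.06 without wild-type replicate 2, -0.07 without Tbx20EH1Mut replicate 3 and -0.01 without the 3 libraries that stand apart. In 7 subunits (11.9%) the genotypes did not overlap, against 30.5% of all genes, and these were *Cox4i2* and the 6 that fell. Without the 3 libraries that stand apart, 10 subunits were called higher and 11 lower, where 18.3% of all genes were called higher and 18.6% lower. With each library's trend on main transcript length removed, an alternative chosen after seeing the data, 3 were called higher and 19 lower, where 15.8% of all genes were called higher and 17.4% lower. An offset on exon length gave 3 higher and 13 lower (15.1% and 16.5% of all genes), and one on main transcript length and GC content gave 3 higher and 16 lower (15.7% and 18.7% of all genes). In either direction, 16, 22 and 19 subunits were called with the offsets on exon length, on main transcript length and on length and GC content, and 21 without the 3 libraries, where 31.5%, 33.2%, 34.4% and 37.0% of all genes were called.

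**Figure D2:**
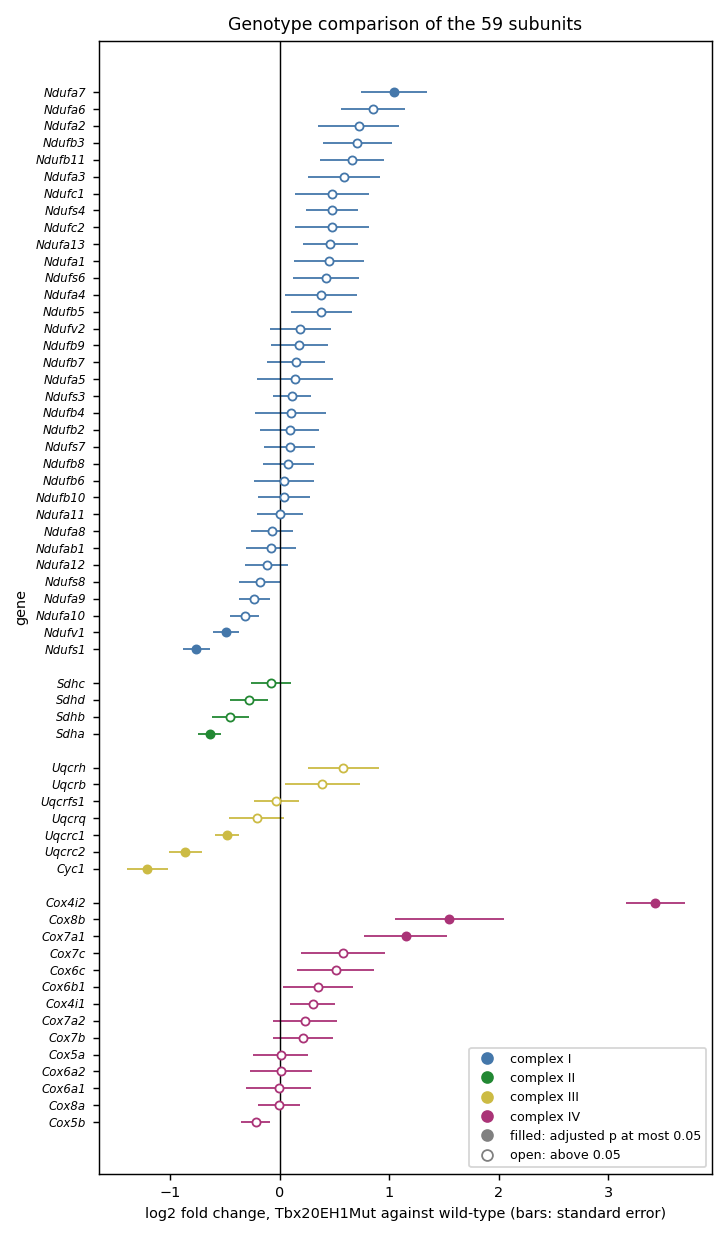
Log2 fold change of each subunit in Tbx20EH1Mut against wild-type hearts (horizontal axis, bars show the standard error of the fit), grouped and coloured by complex, with filled points for the 10 called subunits. Every complex II point lies below 0, the lowest complex III point is *Cyc1* at -1.21, and the highest point of all is *Cox4i2* at 3.43.

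In complex I, 2 of the 6 listed core subunits fell and 1 of 28 accessory subunits rose. Of all genes, 15.3% were called lower and 14.0% higher. *Ndufs1* (ENSMUSG00000025968, chr1:63143596-63176833 of GRCm38, minus strand), which encodes the largest iron-sulfur subunit, was at 194, 204, 238 and 236 CPM in wild-type and at 109.6, 132, 138 and 133 CPM in Tbx20EH1Mut libraries. The lowest wild-type library was above the highest Tbx20EH1Mut library. Its log2 fold change was -0.76 ± 0.120 (SE, edgeR adjusted p = 0.00194). *Ndufs1* shares 9 exon bases with *Eef1b2* and 489 with *Ino80dos*, both of the opposite strand. Summed over all libraries, these genes had 360132 and 914 counts and *Ndufs1* had 57808. *Ndufv1* (ENSMUSG00000037916, chr19:4007497-4012806, minus strand), the subunit that binds NADH and flavin mononucleotide, was at 219, 167, 211 and 220.1 CPM in wild-type and at 141, 157, 144 and 139.9 CPM in Tbx20EH1Mut libraries. These values did not overlap either, although wild-type replicate 2 came close to Tbx20EH1Mut replicate 2. The log2 fold change of *Ndufv1* was -0.49 ± 0.117 (SE, edgeR adjusted p = 0.0126). Both remained called when any 1 library was left out.

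The 4 other nuclear core subunits on the list, *Ndufs3*, *Ndufs7*, *Ndufs8* and *Ndufv2*, were not called, and the median log2 fold change of the 6 core subunits was -0.05. With the length trend removed *Ndufs8* was called lower (-0.44, adjusted p = 0.00922, edgeR), against -0.18 with the counts as deposited. Of the 28 accessory subunits, which surround the core, *Ndufa7* alone was called. This count depended on the libraries, with 8 higher without wild-type replicate 1, 7 higher and 2 lower without the 3 libraries that stand apart, and 0 higher without wild-type replicate 2, 3 or 4 or Tbx20EH1Mut replicate 3 or 4. Without the 3 libraries, 18.3% of all genes were called higher and 18.6% lower. The number called over all genes also moved when 1 library was left out, as given below. Whether it moved to a like degree was not tested. *Ndufa7* (ENSMUSG00000041881, chr17:33824591-33838316, plus strand) was at 189.9, 71.2, 115 and 104 CPM in wild-type and at 201, 186, 366 and 236 CPM in Tbx20EH1Mut libraries. Wild-type replicate 1 lay among the Tbx20EH1Mut values and the other three wild-type libraries lay below them. Its log2 fold change was 1.04 ± 0.301 (SE, edgeR adjusted p = 0.0275), and the call was lost when wild-type replicate 2, 3 or 4 or Tbx20EH1Mut replicate 3 or 4 was left out (adjusted p from 0.0516 to 0.0786, log2 fold change from 0.79 to 1.06). Without the 3 libraries that stand apart it was 0.92 (adjusted p = 0.000705, edgeR). The log2 fold changes of the accessory subunits ran from -0.32 to 1.04 with 0.28 as their median, and no accessory subunit separated the genotypes without overlap. With the offset on main transcript length this median was -0.06, with 1 called higher and 6 lower. With length and GC content it was -0.07 (1 higher, 4 lower), and with exon length 0.1 (1 higher, 2 lower). The shares of all genes called with these offsets are given above. Without Tbx20EH1Mut replicate 3 the accessory median was 0.04. *Ndufa6* lay just above the threshold with a log2 fold change of 0.85 (adjusted p = 0.051, edgeR). It was called in 7 of 11 alternatives with all 8 libraries and without the 3 libraries that stand apart (0.62, adjusted p = 0.00708, edgeR), and not with the offset on main transcript length (0.38, adjusted p = 0.0732, edgeR).

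Per kilobase of the main transcript, *Ndufa4* had the highest mean level of the complex I list (773 CPM per kilobase) and *Ndufb2* the lowest (24.9). The rank of *Ndufb2* rests on the transcript taken as its main one, of 4371 bases. Without division by length its mean of 108.7 CPM was above that of *Ndufb4* (63.6 CPM). *Ndufa4*, which structural work places in complex IV, was at 621, 221, 431 and 364 CPM in wild-type and at 369, 400.5, 844 and 523 CPM in Tbx20EH1Mut libraries. These ranges overlapped, and its log2 fold change of 0.38 ± 0.329 (SE) did not pass the test (edgeR adjusted p = 0.396). Its paralogue *Ndufa4l2*, which is not on the list of 59 and is known as a gene induced by low oxygen, was at 5.04, 3.4, 2.91 and 2.29 CPM in wild-type and at 114, 99.7, 129 and 121 CPM in Tbx20EH1Mut libraries. The difference was a log2 fold change of 5.10 ± 0.238 (SE, edgeR adjusted p = 5.77e-06). *Ndufb2* was at 156, 63.3, 108 and 94.1 CPM against 91.9, 88.3, 157 and 112 CPM, a log2 fold change of 0.09 that was not called.

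In complex II, succinate dehydrogenase, all 4 log2 fold changes were negative (median -0.37) and *Sdha* was called, where 15.3% of all genes were called lower. *Sdha* (ENSMUSG00000021577, chr13:74322254-74350280, minus strand), the flavoprotein that oxidizes succinate, was at 363, 406, 419 and 422 CPM in wild-type and at 249, 269, 264 and 253 CPM in Tbx20EH1Mut libraries. The wild-type values all lay above the Tbx20EH1Mut values, and the ratio of highest to lowest library was 1.16 in wild-type and 1.08 in Tbx20EH1Mut hearts. Its log2 fold change was -0.64 ± 0.102 (SE, edgeR adjusted p = 0.00209). *Sdhb*, the iron-sulfur subunit, was at 312, 175, 271 and 272 CPM against 169, 189.9, 197 and 196 CPM. Wild-type replicate 2 alone fell among the Tbx20EH1Mut values, and the log2 fold change of -0.45 did not pass the test (adjusted p = 0.0628, edgeR). Without the 3 libraries that stand apart it was -0.56 (adjusted p = 0.00241, edgeR). The membrane anchors *Sdhc* and *Sdhd* had log2 fold changes of -0.08 and -0.28 and were not called. *Sdhd* was called without the 3 libraries (-0.49, adjusted p = 0.0111, edgeR) and with all 3 length offsets (-0.55 to -0.48, adjusted p from 0.00941 to 0.0189, edgeR), and *Sdhb* with all 3 offsets as well. *Sdhd* had the highest level of the complex per kilobase (234 CPM per kilobase) and *Sdhc* the lowest (78.3).

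The 250 bases before the start of *Sdha* in RefSeq's annotation of GRCm38.p6 (chr13:74350241-74350490, minus strand) are shown because they hold 3 matches to the motif of NRF1, a transcription factor known to act on respiratory chain genes (GCGCA, then any base, then GCGC). The sequence is printed 5' to 3', and capitals mark matches on either strand to this motif, to the ETS core (CCGGAAG), to either core of the hypoxia response element (ACGTG, the A form, or GCGTG, the G form) and to the E-box (CANNTG). An E-box can overlap the A form of the hypoxia core.
Sdha: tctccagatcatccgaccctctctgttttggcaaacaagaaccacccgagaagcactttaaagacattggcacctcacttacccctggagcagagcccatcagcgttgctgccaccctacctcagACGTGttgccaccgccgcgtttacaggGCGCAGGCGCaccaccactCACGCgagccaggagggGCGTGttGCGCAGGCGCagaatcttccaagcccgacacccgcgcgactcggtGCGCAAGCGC
A promoter entry was found for 47 of the 59 subunits, and not for *Cox4i1*, *Cox4i2*, *Cox6a2*, *Cox6c*, *Cyc1*, *Ndufa2*, *Ndufb9*, *Ndufs1*, *Sdhc*, *Uqcrb*, *Uqcrc2* and *Uqcrq*. The NRF1 motif was present in 8 of these 47 windows (17.0%) and in 4.23% of the windows of all 27025 genes in the table, and the ETS core in 7 (14.9%) against 7.83%. The G form of the hypoxia core was found in 19 (40.4%, against 30.9% of all genes) and the A form in 7 (14.9%, against 18.5%). The T-box letters GGTGTG were found in 4 (8.51%, against 18.3%), an E-box in 29 (61.7%, against 69.3%) and the MEF2 motif (CTA and TAG with 4 bases between them) in 1 (2.13%, against 3.7%). The letters searched for ERR (TCAAGGTCA) and for YY1 (AAGATGGCG) were not in any of the 47 windows and were in 0.422% and 0.71% of all windows. All motifs were read on both strands, and a match is a description of the letters only.

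In complex III, *Cyc1*, *Uqcrc2* and *Uqcrc1* fell, 3 of 7 subunits, where 15.3% of all genes were called lower. *Cyc1* (ENSMUSG00000022551, chr15:76343523-76345934, plus strand) encodes cytochrome *c*1, the haem protein that hands electrons to cytochrome *c*. It was at 321, 338, 389 and 389.9 CPM in wild-type and at 160.4, 205, 103 and 153 CPM in Tbx20EH1Mut libraries. All wild-type libraries lay above all Tbx20EH1Mut libraries, and within the mutant genotype replicate 3 was the lowest. The log2 fold change of -1.21 ± 0.188 (SE, edgeR adjusted p = 0.0018) was the largest fall of the 59 subunits.

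*Uqcrc2* (ENSMUSG00000030884, chr7:120635176-120659524, plus strand) and *Uqcrc1* (ENSMUSG00000025651, chr9:108936633-108949623, plus strand) encode the core proteins on the matrix side of the complex. *Uqcrc2* was at 197, 244, 262 and 257 CPM in wild-type and at 128, 163, 105 and 133 CPM in Tbx20EH1Mut libraries. *Uqcrc1* was at 368, 292, 350.1 and 356 CPM in wild-type and at 239.5, 253, 250 and 234 CPM in Tbx20EH1Mut libraries. Neither gene overlapped between the genotypes. The log2 fold changes were -0.86 ± 0.151 (SE, edgeR adjusted p = 0.00321) for *Uqcrc2* and -0.48 ± 0.109 (SE, edgeR adjusted p = 0.00998) for *Uqcrc1*. *Uqcrc2* shares 504 exon bases with *Pdzd9*, a gene of the opposite strand whose 8 libraries summed to 459 counts, while *Uqcrc2* had 62809.

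The 4 other complex III subunits were not called. *Uqcrfs1*, the Rieske iron-sulfur protein, had a log2 fold change of -0.03 and *Uqcrq* one of -0.21. *Uqcrh*, a small hinge protein with the highest level of the complex per kilobase (715 CPM per kilobase), was at 487, 181, 299 and 285 CPM in wild-type and at 329, 342, 749 and 456 CPM in Tbx20EH1Mut libraries. Its ranges overlapped through wild-type replicate 1, its log2 fold change was 0.58 (adjusted p = 0.196, edgeR), and of the alternatives run it was called only without that replicate (0.88, adjusted p = 0.0444, edgeR). *Uqcrc2* had the lowest level of the complex (98.1 CPM per kilobase).

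**Figure D3:**
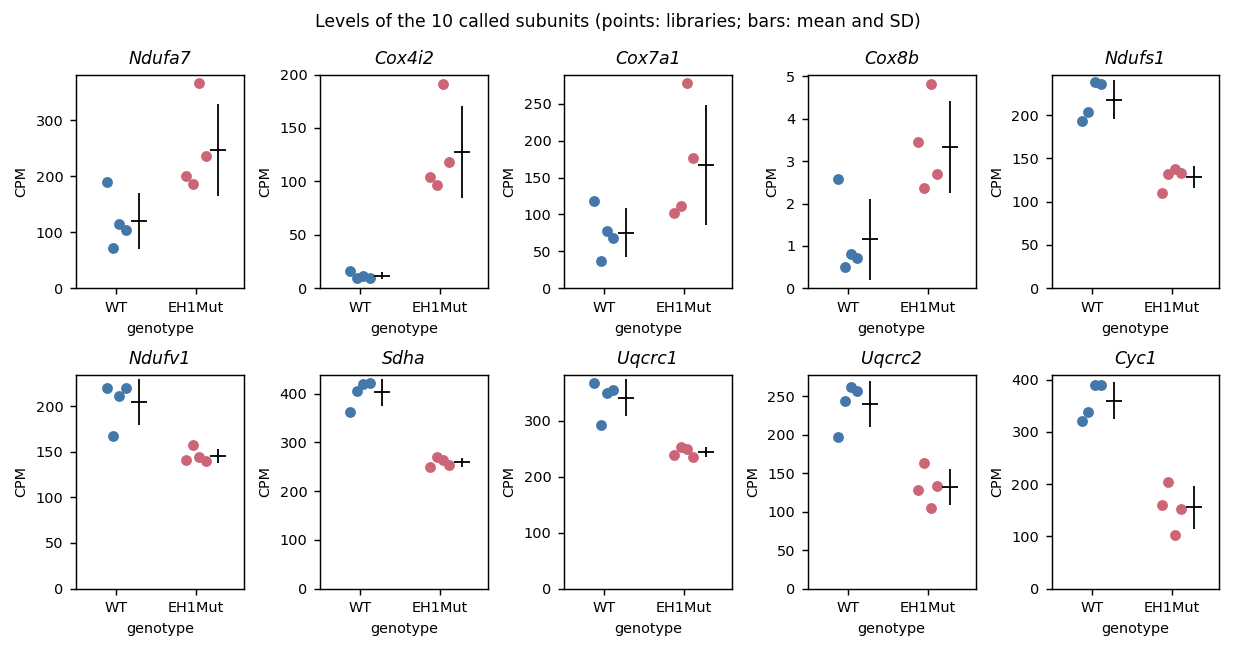
Level in CPM of the 10 called subunits in each library (points, from 0), with the mean and SD of 4 libraries per genotype as a bar beside them. The 6 subunits that fell and *Cox4i2* show no overlap between genotypes, whereas in *Ndufa7*, *Cox7a1* and *Cox8b* the highest wild-type point lies among the Tbx20EH1Mut points.

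In complex IV, 3 of 14 subunits (21.4%) rose, where 14.0% of all genes were called higher. All 3 are tissue-specific isoforms, of which the list holds 4 by choice. In complex IV 0 subunits fell in edgeR, DESeq2 or limma-voom or at an unadjusted edgeR p below 0.05. The lowest log2 fold change of the 14 was -0.22, for *Cox5b* (adjusted p = 0.213, edgeR), which was called lower without the 3 libraries that stand apart (-0.31, adjusted p = 0.0245, edgeR). *Cox5b* was also called lower with all 3 length offsets (-0.57 to -0.42, adjusted p from 0.00109 to 0.0062, edgeR). Of the 14, 4 were called lower with the offset on main transcript length, 3 with length and GC content and 2 with exon length. In each of these fits 2 were called higher. *Cox4i2* (ENSMUSG00000009876, chr2:152754173-152765037, plus strand) was at 16.5, 9.88, 11.7 and 9.32 CPM in wild-type and at 104, 96.5, 191 and 118 CPM in Tbx20EH1Mut libraries. The lowest Tbx20EH1Mut library was far above the highest wild-type library. These levels rest on 427 to 588 counts per wild-type library and on 3632 to 6108 per Tbx20EH1Mut library. The log2 fold change was 3.43 ± 0.266 (SE), a 10.8-fold rise (edgeR adjusted p = 4.62e-05), and it lay between 3.17 and 3.62 when 1 library at a time was left out. Its counterpart *Cox4i1* was at 821, 412, 614 and 611 CPM against 657, 681, 933 and 749.9 CPM. The ranges of *Cox4i1* overlapped and its log2 fold change of 0.30 did not pass the test (adjusted p = 0.285, edgeR). Of 10 smooth muscle and pericyte markers, *Rgs5* rose (0.93, a call lost in 4 of 8 fits without 1 library) and *Abcc9* fell, *Kcnj8* was under 1 CPM, and the summed level was 4371 to 5087 CPM in wild-type and 4899 to 7687 CPM in Tbx20EH1Mut libraries.

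Of the muscle isoforms, *Cox7a1* and *Cox8b* were called higher and *Cox6a2* was not. *Cox7a1* (ENSMUSG00000074218, chr7:30184144-30186078, plus strand) was at 118, 37.4, 78.3 and 67.6 CPM in wild-type and at 102, 112, 278 and 176 CPM in Tbx20EH1Mut libraries. Wild-type replicate 1 lay above Tbx20EH1Mut replicates 1 and 2. The log2 fold change was 1.15 ± 0.379 (SE, edgeR adjusted p = 0.0449). The call was lost when wild-type replicate 2, 3 or 4 or Tbx20EH1Mut replicate 3 or 4 was left out (adjusted p from 0.0829 to 0.120, log2 fold change from 0.79 to 1.16). It was also lost with the trend on main transcript length removed (0.57, adjusted p = 0.0559, edgeR). Without the 3 libraries that stand apart the log2 fold change was 0.83 (adjusted p = 0.0141, edgeR).

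*Cox8b* (ENSMUSG00000025488, chr7:140898945-140900446, minus strand) was a rare message, at 2.58, 0.509, 0.797 and 0.72 CPM in wild-type and at 3.44, 2.36, 4.81 and 2.7 CPM in Tbx20EH1Mut libraries. Wild-type replicate 1 stood above the other wild-type libraries and above Tbx20EH1Mut replicate 2. The wild-type libraries held 85, 25, 40 and 33 counts and the Tbx20EH1Mut libraries 133, 89, 154 and 102. Its log2 fold change was 1.55 ± 0.497 (SE, edgeR adjusted p = 0.0402), and the call was lost when wild-type replicate 2, 3 or 4 or Tbx20EH1Mut replicate 1, 3 or 4 was left out (adjusted p from 0.0711 to 0.109, log2 fold change from 1.31 to 1.64). Without the 3 libraries that stand apart it was 1.89 (adjusted p = 0.0021, edgeR). *Cox6a2* was at 177, 60.8, 119 and 98.8 CPM in wild-type and at 91.8, 98.5, 152 and 116 CPM in Tbx20EH1Mut libraries, and its log2 fold change was 0.01 ± 0.285 (SE, edgeR adjusted p = 0.985). The general isoforms *Cox6a1*, *Cox7a2* and *Cox8a* had log2 fold changes of -0.01, 0.23 and -0.01 and were not called.

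Because both messages of a pair come from 1 library, the ratio of an isoform to its counterpart does not depend on how libraries are scaled. A library's trend on message length does not cancel in it. The main transcript has 393 bases in *Cox7a1* against 659 in *Cox7a2*, and 360 in *Cox8b* against 550 in *Cox8a*. It has 733 bases in *Cox4i2* against 765 in *Cox4i1*, and 680 in *Cox6a2* against 571 in *Cox6a1*. The part of length in the ratios was not tested. Of the summed *Cox4i2* and *Cox4i1* level per kilobase, *Cox4i2* made up 2.05%, 2.44%, 1.95% and 1.57% in wild-type replicates 1 to 4 and 14.2%, 12.9%, 17.6% and 14.1% in Tbx20EH1Mut replicates 1 to 4. *Cox7a1* made up 33.6%, 28.6%, 33.2% and 32.6% of its pair in wild-type and 42.7%, 44.5%, 50.05% and 49.6% in Tbx20EH1Mut libraries. The genotypes did not overlap in either pair, including *Cox7a1*, whose level in CPM did overlap. *Cox8b* made up 0.632%, 0.247%, 0.239% and 0.258% of its pair in wild-type and 1.25%, 0.791%, 1.37% and 0.889% in Tbx20EH1Mut libraries, again without overlap. *Cox6a2* made up 14.1%, 14.0%, 15.3% and 13.3% in wild-type and 14.98%, 14.99%, 13.9% and 14.0% in Tbx20EH1Mut libraries, which overlapped. The general form was thus the more abundant in both genotypes for *Cox4i1*, *Cox6a1* and *Cox8a*, while *Cox7a1* and *Cox7a2* were close to equal in Tbx20EH1Mut replicates 3 and 4.

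The log2 ratio was higher in Tbx20EH1Mut hearts by 3.08 for *Cox4i2* to *Cox4i1*, by 0.90 for *Cox7a1* to *Cox7a2* and by 1.74 for *Cox8b* to *Cox8a*. Each of these differences had p = 0.0286 in an exact two-sided permutation test, the smallest value that 4 libraries against 4 allow, and 0.0381 after adjustment over the 4 pairs. The SD over libraries was 0.269 and 0.225 for the *Cox4i2* pair, 0.156 and 0.213 for the *Cox7a1* pair and 0.674 and 0.384 for the *Cox8b* pair in wild-type and Tbx20EH1Mut hearts. For *Cox6a2* to *Cox6a1* the difference was 0.04 (exact two-sided permutation test, p = 0.629), with SDs of 0.0957 and 0.0684. When any 1 Tbx20EH1Mut library was left out, the *Cox8b* ratio had an exact permutation p of 0.0571, with differences from 1.61 to 1.88.

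**Figure D4:**
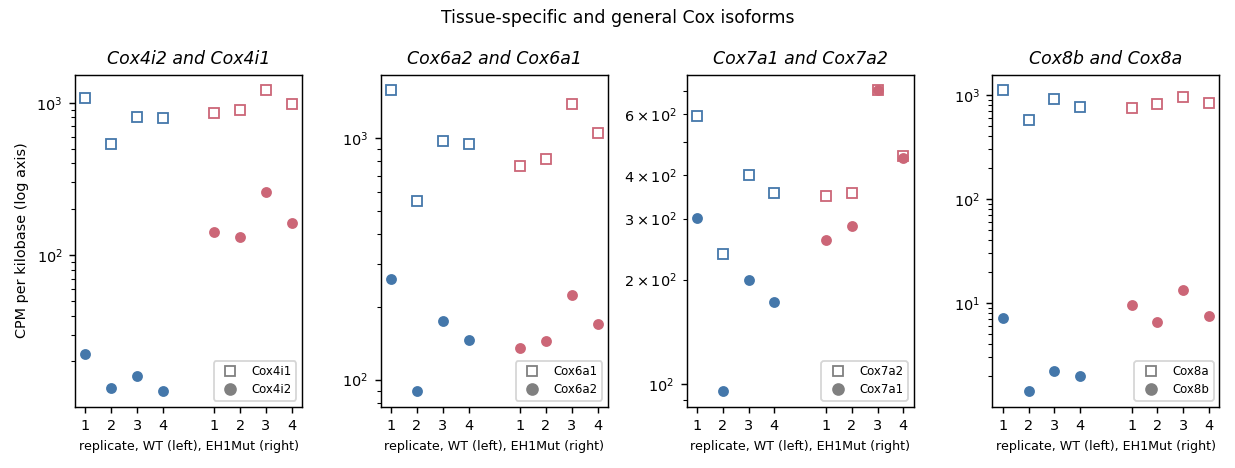
Level in CPM per kilobase of main transcript (log axis) of each tissue-specific *Cox* isoform (filled circles) and its general counterpart (open squares) in wild-type (left) and Tbx20EH1Mut (right) libraries. The gap between circles and squares narrows in Tbx20EH1Mut hearts for *Cox4i2*, *Cox7a1* and *Cox8b* and is alike in both genotypes for *Cox6a2*.

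The 250 bases before the starts of *Cox7a1* (chr7:30183921-30184170, plus strand), *Cox7a2* (chr9:79759854-79760103, minus strand), *Cox8b* (chr7:140900447-140900696, minus strand) and *Cox8a* (chr19:7217617-7217866, minus strand) are shown to set the muscle forms whose ratio rose beside their general counterparts. They are from RefSeq's annotation of GRCm38.p6, 5' to 3', with capitals for the same motifs as in the *Sdha* window.
Cox7a1: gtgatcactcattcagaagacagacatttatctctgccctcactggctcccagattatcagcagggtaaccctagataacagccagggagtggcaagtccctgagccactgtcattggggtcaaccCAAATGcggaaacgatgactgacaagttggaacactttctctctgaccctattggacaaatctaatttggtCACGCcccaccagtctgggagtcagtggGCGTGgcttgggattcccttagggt
Cox7a2: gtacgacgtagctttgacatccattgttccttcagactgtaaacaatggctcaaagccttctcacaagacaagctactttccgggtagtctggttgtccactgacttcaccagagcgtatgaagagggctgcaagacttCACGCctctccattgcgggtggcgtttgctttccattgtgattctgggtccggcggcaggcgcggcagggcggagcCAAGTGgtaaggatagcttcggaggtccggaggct
Cox8b: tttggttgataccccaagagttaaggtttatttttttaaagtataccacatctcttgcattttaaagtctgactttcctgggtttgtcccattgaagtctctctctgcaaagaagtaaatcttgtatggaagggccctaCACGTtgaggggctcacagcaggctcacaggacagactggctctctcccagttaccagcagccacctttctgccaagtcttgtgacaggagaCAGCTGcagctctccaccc
Cox8a: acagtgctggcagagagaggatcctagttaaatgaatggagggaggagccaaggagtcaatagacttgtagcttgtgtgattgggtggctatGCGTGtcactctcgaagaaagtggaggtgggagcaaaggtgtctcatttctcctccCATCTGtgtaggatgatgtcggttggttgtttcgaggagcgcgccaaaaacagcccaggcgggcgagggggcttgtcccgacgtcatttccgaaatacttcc
The muscle forms held fewer CG dinucleotides than their counterparts, 4 in *Cox7a1* against 14 in *Cox7a2* and 1 in *Cox8b* against 11 in *Cox8a*. The share of G and C was 51.2% and 54.8% in the *Cox7a1* and *Cox7a2* windows and 47.2% and 52.8% in the *Cox8b* and *Cox8a* windows. The G form of the hypoxia core was found at 2 places in *Cox7a1*, and *Cox8b* held 1 A form. *Cox7a2* and *Cox8a*, which were not called, each held 1 G form, and each of the 4 windows held 1 E-box.

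Across the subunits, the genotype difference varied with the length of the message. The 35 subunits with a main transcript of at most 1000 bases had a median log2 fold change of 0.35, with 4 called higher and 0 lower, and the 24 longer ones had a median of -0.15, with 6 called lower and 0 higher. DESeq2 and limma-voom also called 0 short subunits lower and 0 long ones higher, as did edgeR at an unadjusted p below 0.05. This split did not hold with each library's length trend removed, where 8 short subunits were called lower with the offset on main transcript length, 5 with length and GC content and 3 with exon length. Without wild-type replicate 1, 2 long subunits were called higher, and without the 3 libraries that stand apart 1 short subunit was called lower and 1 long one higher. All protein-coding genes of at most 1000 bases had a median of 0.40, with 210 of 862 called higher and 36 lower, and the longer ones had a median of -0.06, with 1775 of 13296 called higher and 2486 lower. Spearman's rho between log2 fold change and main transcript length was -0.617 over the 59 subunits and -0.20 over 14158 protein-coding genes, as a description across genes that share their libraries. Of 77 cytosolic ribosomal proteins, which are short and abundant messages, 66 rose and the other 11 were not called, and 22 rose without wild-type replicate 4, 27 without wild-type replicate 3, 34 without Tbx20EH1Mut replicate 3 and 38 without Tbx20EH1Mut replicate 4. Within a genotype, the median ratio of highest to lowest library over the 59 subunits was 2.39 in wild-type and 1.78 in Tbx20EH1Mut hearts, and the extremes were 1.08 for *Uqcrc1* in Tbx20EH1Mut and 5.07 for *Cox8b* in wild-type hearts. The part of message length or RNA quality in the genotype differences was not tested.

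The calls of the 6 subunits that fell and of *Cox4i2* held under these settings. With each library's trend on main transcript length removed, the log2 fold changes were -0.73 for *Ndufs1*, -0.58 for *Ndufv1*, -0.58 for *Sdha*, -0.58 for *Uqcrc1*, -0.93 for *Uqcrc2* and -1.34 for *Cyc1*, all called, and 3.01 for *Cox4i2*. Without the 3 libraries that stand apart they were -0.93, -0.57, -0.72, -0.55, -0.89 and -1.18 in the same order, and 3.33 for *Cox4i2*, again all called. As those libraries were picked as the extremes of these subunits, that fit is no independent check of the calls. With the length trend removed, complex II had a median of -0.53 with 3 of 4 subunits called lower, complex III a median of -0.32 with 3 of 7 lower, complex I a median of -0.13 with 1 higher and 9 lower, and complex IV a median of -0.08 with 2 higher and 4 lower. Under this setting *Cox8a* fell (-0.48, adjusted p = 0.00439, edgeR), which it did not with the counts as deposited (-0.01).

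**Figure D5:**
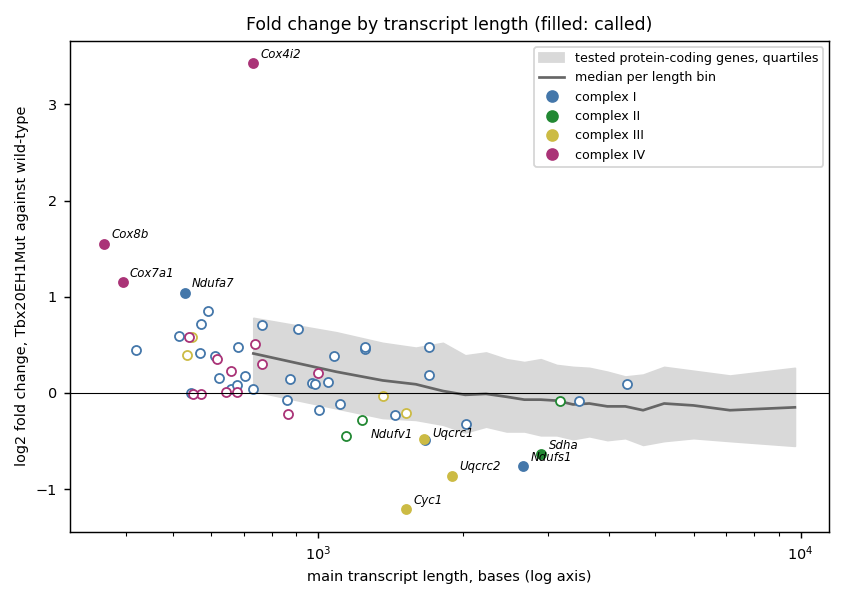
Log2 fold change of the 59 subunits (points, coloured by complex, filled where called) against the length of the main transcript in bases (log axis), with the median and quartiles of 14158 tested protein-coding genes in bins of length (grey). The subunits that rose lie at the short end, the subunits that fell lie at longer lengths and below the grey median, and *Cox4i2* lies above all other points.

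The rest of the pathway was read from lists of 108 tested genes, of which 8 rose and 35 fell (39.8% called, against 29.3% of all genes). Without wild-type replicate 1 the number that rose was 16, and without wild-type replicate 3 or 4 it was 4 and without Tbx20EH1Mut replicate 3 or 4 it was 5. The number that fell was 26 to 37 without 1 library, 51 with the offset on main transcript length and 46 without the 3 libraries that stand apart. Among 8 tested further subunits of complexes I to IV, *Ndufa4l2*, *Cox6b2*, *Cox7a2l* and *Ndufv3* rose and the others were not called, with the *Ndufv3* call lost without wild-type replicate 3 or 4. Of these 8, 3 were called lower with the offset on main transcript length, 2 with length and GC content, 1 with exon length and 1 without the 3 libraries that stand apart. *Cox6b2*, known as the testis form of *Cox6b1*, was at 14.2, 4.93, 8.45 and 11.1 CPM in wild-type and at 21.7, 20.1, 19.9 and 23.1 CPM in Tbx20EH1Mut libraries (log2 fold change 1.14 ± 0.267 SE, edgeR adjusted p = 0.0118). Its groups did not overlap, while *Cox6b1* had a log2 fold change of 0.35 and was not called. Of 18 ATP synthase genes, 3 (16.7%) were called. *Atp5a1* and *Atp5b*, the alpha and the catalytic beta subunit of the F1 part, fell (log2 fold change -0.50 and -0.63) and *Atp5g2* rose (0.53). The *Atp5g2* call was lost without wild-type replicate 3 or 4 or Tbx20EH1Mut replicate 3 or 4, and with the offset on main transcript length (0.14, adjusted p = 0.19, edgeR), while 4 ATP synthase genes rose without wild-type replicate 1. The number that fell was 5 with the offset on main transcript length and 4 with length and GC content.

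Of 16 genes of the citric acid cycle and pyruvate dehydrogenase, which supply NADH and succinate, 12 fell and the others were not called (median log2 fold change -0.48). *Ogdh*, of the oxoglutarate dehydrogenase complex, was at 182, 334, 221 and 232 CPM in wild-type and at 89.9, 103, 101 and 93.2 CPM in Tbx20EH1Mut libraries. Its groups did not overlap, and its log2 fold change was -1.32 ± 0.174 (SE, edgeR adjusted p = 0.000815). Of the 40 tested assembly factors of complexes I to IV, 11 fell and 3 rose (35.0% called). The number that fell was 7 without wild-type replicate 3 or 4 or Tbx20EH1Mut replicate 4. The number that rose was 7 without wild-type replicate 1 and 1 without wild-type replicate 3 or 4 or Tbx20EH1Mut replicate 3 or 4. Those that changed by at least 1 on the log2 scale were *Cox15*, an enzyme of haem A synthesis (-1.18), *Ecsit*, a complex I assembly factor (-1.10), and *Pet100*, a complex IV assembly factor (1.17), whose call was lost when any 1 of 5 libraries was left out (adjusted p from 0.0704 to 0.0998, edgeR). Among 12 tested mitochondrially encoded messages, 6 fell and the others were not called, with log2 fold changes of -1.33 for *mt-Nd1*, -1.5 for *mt-Nd4*, -1.08 for *mt-Nd5*, -1.66 for *mt-Cytb* and -1.62 for *mt-Co1* among those called, and 9 fell with the offset on main transcript length and 10 with length and GC content. Of 16 genes known to respond to low oxygen, all 16 rose without overlap between genotypes (median log2 fold change 1.40). Of all genes, 14.0% were called higher and 30.5% did not overlap. This list, to which neither *Cox4i2* nor *Ndufa4l2* belonged, was chosen with earlier results of these data known, so its count is no independent check.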

How the data were processed

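Poly-A selected RNA of 8 libraries was sequenced as paired reads of 150 bases. The authors deposited raw counts per Ensembl gene with summed exon lengths, not normalized. Per the labels, reads were trimmed with Trimmomatic 0.36 and aligned with STAR 2.5.2b, and the builds named are GRCm38 and mm10. The counting tool, its strand setting and its handling of reads that map to several places are not given in the sources used here, so reads of overlapping genes, antisense genes and near-identical copies are uncertain. Of 49315 genes, 48970 were matched to a GENCODE M21 symbol, of which 91.4% had identical start and end positions.

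Counts were filtered with filterByExpr, scaled by TMM and tested with glmQLFit and glmQLFTest of edgeR 4.0.16 in R 4.3.3, with genotype as the only term. The common dispersion was 0.0707. The same steps were tested on simulated data. Isoform ratios used counts plus 0.5 per kilobase of the main transcript and an exact two-sided permutation test over 70 arrangements. Every pair of replicates differed beyond sampling noise. Depth was 33359322 to 49523086 counts per library, which leaves genes near 1 CPM least precise.

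The members and gene lists were chosen with earlier results of these data known. The text names Tbx20, called subunits, both members of each Cox isoform pair, the highest, lowest and most changed subunit of each complex, Ndufa4l2, and other pathway genes called with a log2 fold change of at least 1. A gene that this rule names is not reported here. A few further genes (such as Sdhb, Ndufa6, Cox5b, Uqcrfs1, Cox8a under the length offset, uncalled core subunits, changed markers, Atp5a1, Atp5b and Atp5g2) were named after their values were seen. Alternatives were DESeq2 1.42.0, limma-voom (limma 3.58.1), other scalings and filters, a replicate block, a loess offset on exon length (span 0.3) and leaving out each library. Chosen after seeing the data were offsets on main transcript length, alone or with GC content, and leaving out 3 libraries. Tables and plots used Python 3.11.15, numpy 2.4.6, pandas 2.3.3 and matplotlib 3.10.9.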

Additional observations from a re-analysis of the deposited data

Results flagged for a closer look

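Among 74 groups of 4 libraries tested for 1 library far from the others, of which chance alone would mark about 1 in 20, 2 were marked, and both concern *Cox8b*. Its level in wild-type replicate 1 was 2.58 CPM, and the gap to the next wild-type library was 0.861 of the range of the group. The log2 ratio of *Cox8b* to *Cox8a* in the same library was -7.29, with a gap of 0.918 of the range. Wild-type replicate 1 was also the wild-type library with the highest value of 54 of the 59 subunits. The cause was not tested.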

How the results depend on the processing

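The directions of the called named genes and of the isoform ratios of *Cox4i2*, *Cox7a1* and *Cox8b* did not reverse under any alternative run. Among named genes that were not called, signs did change, as for *Ndufa4* (0.38 as deposited, -0.06 with the offset on main transcript length), *Cox4i1* (0.30 and -0.07), *Cox7a2* (0.23 and -0.19) and *Cox6a2* (0.01 and -0.37). The genes *Cox4i2*, *Ndufs1*, *Ndufv1*, *Sdha*, *Uqcrc1*, *Uqcrc2* and *Cyc1* were called in all 11 alternatives with 8 libraries and in all 8 fits without 1 library. The number of called subunits, 10 as deposited, was 16 with the offset on exon length (13 lower), 22 with that on main transcript length (19 lower), 19 with length and GC content (16 lower) and 21 without the 3 libraries that stand apart (10 higher, 11 lower), beside 31.5%, 33.2%, 34.4% and 37.0% of all genes. Leaving out 1 library gave 7 to 18 called subunits and 1 to 12 called higher, with 12 without wild-type replicate 1 and 1 without wild-type replicate 2, 3 or 4 or Tbx20EH1Mut replicate 3 or 4. Over all genes, 5024 as deposited, it gave 3001 (without wild-type replicate 4) to 6586. The fit without wild-type replicate 3 gave 3061 and that without Tbx20EH1Mut replicate 4 gave 3028. The difference of the *Cox8b* to *Cox8a* log2 ratio was 1.61 to 2.08 without 1 library, and had an exact permutation p of 0.0571 without any 1 Tbx20EH1Mut library (1.61 to 1.88). *Tbx20* lost its call in 7 of 20 alternatives. The cause was not tested.

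Whether the replicate numbers pair the samples is not given in the sources used here, and correlations between libraries cannot settle it. Deviations of libraries with the same number correlated at -0.268, 0.338, 0.0601 and 0.0599, and wild-type replicate 1 correlated best with Tbx20EH1Mut replicate 3. With a replicate block the 6 subunits that fell and *Cox4i2* were called, as they were without it. A blocked exact sign-flip test of the ratios, whose smallest p is 0.125, gave that p for *Cox4i2* (3.08), *Cox7a1* (0.90) and *Cox8b* (1.74), so it cannot call them. Depth limits *Cox8b* most.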

Other observations

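Of 14 tested regulators of respiratory genes, 4 (28.6%) fell and the others were not called (median log2 fold change -0.29). Among all genes, 29.3% were called in either direction and 15.3% were called lower. *Polrmt*, the mitochondrial RNA polymerase, had a log2 fold change of -0.87, *Pprc1*, a coactivator of the PGC-1 family, one of -0.82, *Esrra*, an oestrogen-related receptor, one of -0.79, and *Tfb2m*, a mitochondrial transcription factor, one of -0.62, all called with edgeR and without overlap between genotypes. *Ppargc1a*, *Tfam* and *Yy1*, at -0.04, 0.18 and 0.01, and *Nrf1* at -0.34 did not pass the test (*Nrf1* was called in 2 of 11 alternatives with all 8 libraries), and *Ppara* was under 1 CPM in every library. These genes were named after their values were seen.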
